A study of Mus musculus with 16 samples.

Results

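Lungs irradiated with 8 Gy were compared with unirradiated lungs (0 Gy), averaging the difference found with a control antibody (IgG) and the difference found with an antibody against PD-1, the inhibitory receptor of activated T cells. The comparison takes 11 of the 16 libraries of the study, chosen by the dose and antibody in their labels: 6 at 8 Gy (3 with IgG, 3 with anti-PD-1) and 5 at 0 Gy (3 with IgG, 2 with anti-PD-1). The other 5 libraries, at 4 Gy, enter 1 comparison at the end. All lungs came from C57BL/6 mice and carried HKP1 tumours, which grow from a mouse lung adenocarcinoma line, and were collected 24 to 48 h after irradiation. A library pools the lungs of 3 to 4 mice, so that animals within a library cannot be separated, and no label tells if pools of 1 group stem from separate experiments. The p-values therefore measure the spread between these pools only.

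Ionising radiation breaks DNA. Broken DNA stabilises the transcription factor p53, which switches on genes that halt the cell cycle or kill the cell. DNA that reaches the cytosol is recognised by sensors that lead to interferon, and interferon receptors act through STAT transcription factors on a large set of antiviral genes. In the lung, radiation is also known for injury to the alveolar lining, the small vessels and the connective tissue, which is followed by the entry of monocytes and macrophages. Because each library holds the RNA of whole lung with its tumour, a change in the number of cells of a type and a change in RNA per cell cannot be told apart in any value given here.

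Expression is given in CPM, the reads of a gene scaled to the size of its library. In the 11 libraries 1 read was worth 0.0173 to 0.0334 CPM. Surfactant protein C (Sftpc), the marker of alveolar type 2 cells, stood at 442 to 3490 CPM and the club cell protein Scgb1a1 at 414 to 3890 CPM, so lung tissue was present in every library. Transcripts of the mitochondrial genome took 1.01 to 3.73% of the CPM at 0 Gy and 1.69 to 8.23% at 8 Gy, and haemoglobin 0.216 to 2.39% and 0.704 to 2.41%. On the first principal component of the 11 libraries, which held 42.2% of the variance, the IgG 8 Gy libraries lay at 44.2 to 45.4 and anti-PD-1 8 Gy replicate 1 at 33.8. Anti-PD-1 8 Gy replicates 2 and 3, at -2.65 and -8.13, lay nearer to the 0 Gy libraries, which ran from -52.5 to -0.395. The sample titles of the 0 Gy libraries end in S13 to S17 and those of the 8 Gy libraries in S31 to S36. The labels do not say what these numbers stand for, and whatever they mark cannot be told apart from the dose.

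Of the 17546 genes tested, 3640 (20.7%) passed the test (limma, Benjamini-Hochberg adjusted p under 0.05), 822 higher at 8 Gy (4.68%) and 2818 lower (16.1%). The 2 doses did not overlap, with 8 Gy above, in 271 genes (1.54%), and with 8 Gy below in 861 (4.91%). The balance of the directions depended on scaling. With quantile normalization 1421 were higher and 1764 lower, and with equal library medians 1568 and 1915, while the median over all genes of the log2 fold change moved from -0.09 to 0.03 and 0.02. The total also depended on single libraries. Leaving out IgG 0 Gy replicate 1 gave 2312, anti-PD-1 8 Gy replicate 1 gave 2192 and the second anti-PD-1 0 Gy library gave 2011. Changes of at least 2-fold were found in 182 of the genes called higher and 605 of those called lower, and of at least 4-fold in 9 and 27.

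The fall was spread unevenly over kinds of transcript. Long non-coding RNA genes were called lower in 247 of 1018 cases (24.3%) and protein-coding genes in 2463 of 14431 (17.1%), against 29 of 1561 processed pseudogenes (1.86%). Divided into 4 classes of like size by the length of their annotated exons, genes of the shortest class were called lower in 7.58% of cases and those of the following classes in 16.6, 20.9 and 19.2%. For calls in the other direction the shares were 5.49, 6.07, 4.73 and 2.48%. The mitochondrial share, 1.01 to 3.73% at 0 Gy and 1.69 to 8.23% at 8 Gy, overlapped between the doses. Of 13 mitochondrially encoded genes 9 were called higher, with a median log2 fold change of 1.32. All 9 red blood cell genes were called higher, with a median of 1.7. In neither list did a gene separate the doses, and without IgG 0 Gy replicate 1 each number was 2. The length pattern was not taken for single libraries, and the part of RNA quality in it was not tested.

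The change at 8 Gy was next compared between the antibodies. Across the 17546 genes the log2 fold change with IgG and that with anti-PD-1 had a Pearson correlation of 0.671, a description over genes, which are not independent replicates. No gene passed the test of the interaction after adjustment (limma, 0 of 17546, 0.0%), and 598 (3.41%) had an unadjusted p under 0.05. Of the 822 genes called higher, 250 had the larger difference with IgG. Of the 2818 called lower, 1886 did.

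**Figure D1:**
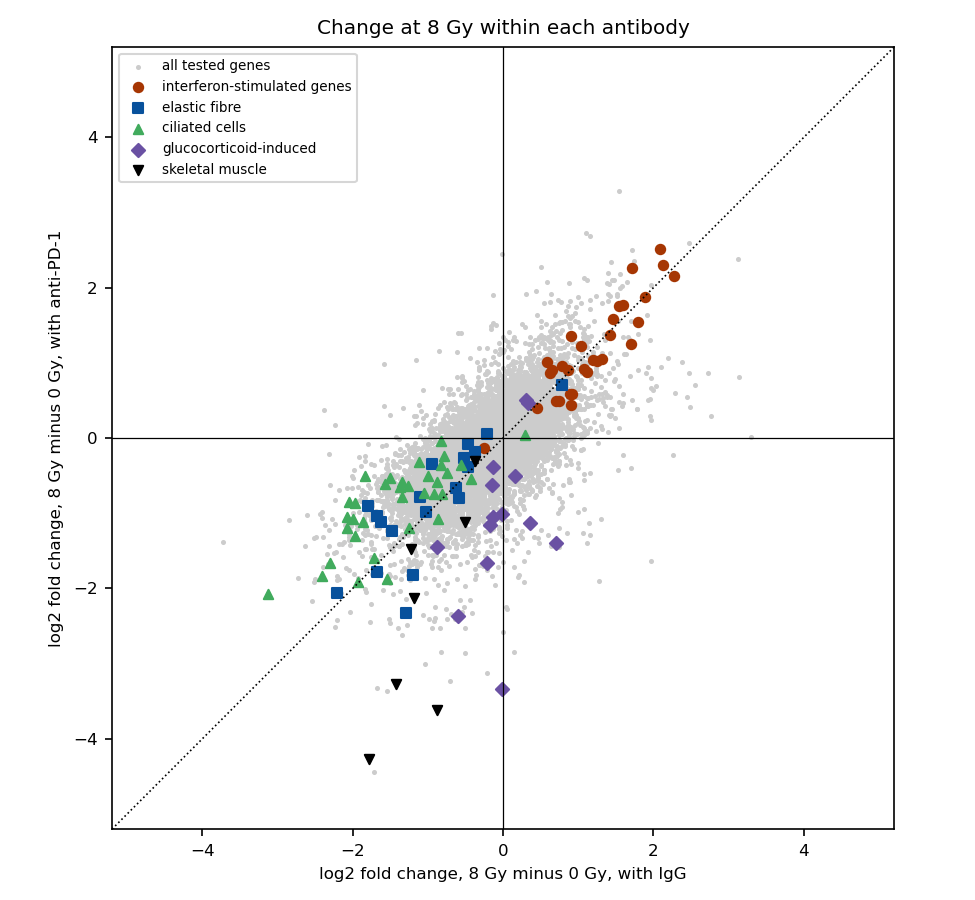
Each point is a tested gene, with its log2 fold change (8 Gy minus 0 Gy) with IgG on the x axis and with anti-PD-1 on the y axis, and 5 gene lists coloured. Interferon-stimulated genes lie near the dotted line of equal change, ciliated cell genes mostly above it, and skeletal muscle and glucocorticoid-induced genes below it.

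The response to DNA damage was led by Cdkn1a, which encodes p21, the inhibitor of cyclin-dependent kinases that p53 induces. Cdkn1a (mm10, chromosome 17, 29090976 to 29100727, plus strand) stood at 45.0, 40.5 and 62.8 CPM in the IgG 0 Gy libraries and at 47.6 and 57.6 CPM with anti-PD-1, and at 8 Gy it ran from 125 to 201 CPM with a median of 156. All 8 Gy libraries lay well above all 0 Gy libraries, and the 3 IgG libraries at 8 Gy lay above the 3 with anti-PD-1. The log2 fold changes were 1.95 with IgG and 1.31 with anti-PD-1 (interaction adjusted p = 0.997).

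Among 30 genes known as p53 targets 8 rose and 3 fell, with a median log2 fold change of 0.13 against -0.09 over all genes tested. Without anti-PD-1 0 Gy replicate 1, and in the additive model, the number that rose was 5. Eda2r, a death receptor of the TNF receptor family, stood at 0.601 to 1.33 CPM at 0 Gy and 1.47 to 3.45 CPM at 8 Gy (1.05 ± 0.18, SE, adjusted p = 0.002). Ccng1, cyclin G1, stood at 48.4 to 64 and 78.7 to 114 CPM, and its log2 fold change was 0.82 with either antibody. The growth inhibitor Phlda3 rose by 0.69 ± 0.12 and the RNA-binding protein gene Zmat3 by 0.47 ± 0.09. In all 4 of these genes the doses did not overlap.

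Members of the same list moved the other way. Ddb2, which recognises ultraviolet damage for nucleotide excision repair, stood at 20, 30.5 and 19.9 CPM with IgG and 35.8 and 37.3 CPM with anti-PD-1 at 0 Gy. At 8 Gy it ran from 7.67 to 21.4 CPM with a median of 10.1, a log2 fold change of -1.28 ± 0.18 (adjusted p = 0.000694), and only anti-PD-1 8 Gy replicate 3 reached the 0 Gy range. Mdm2, the ubiquitin ligase that degrades p53, had a difference of 0.36 ± 0.12 on that scale (adjusted p = 0.0489), a call lost under 15 of 25 alternatives. Trp53 itself stood at 36.9 to 78.2 and 38.2 to 64.6 CPM (adjusted p = 0.649). Of 25 genes that sense and repair DNA breaks none rose and 2 fell, with a median of 0.03. Of 26 genes of mitosis none passed in either direction, with a median of 0.07.

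Genes under the control of interferon rose together. Many of them carry in their promoter the interferon-stimulated response element, the site through which type I interferon signalling acts. It was searched here as a pair of GAAA runs with 2 bases between them, on both strands and with overlapping matches counted, in the RefSeq promoters (GRCm38.p6, 250 bases before to 50 bases after the start of the gene). The 24 interferon-stimulated genes with a promoter in that table, of 30 in the list, held it in 12 cases (50%). The share was 3.93% in the 11848 tested genes with a promoter there and 3.99% in all 27025. The list of guanylate-binding proteins and immunity-related GTPases, described below with Tgtp1, held the element in 9 of 9 promoters (100%). The 150 bases before the start of 4 genes that rose are printed with the matches in capitals, to show how the element is placed. A pair of TTTC runs is the same element read on the other strand.
Isg15 (chr4:156200819-156200968, minus strand): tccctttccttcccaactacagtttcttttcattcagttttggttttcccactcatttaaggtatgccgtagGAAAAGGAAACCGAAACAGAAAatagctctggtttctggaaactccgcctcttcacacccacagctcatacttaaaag
Ifit1 (chr19:34640739-34640888, plus strand): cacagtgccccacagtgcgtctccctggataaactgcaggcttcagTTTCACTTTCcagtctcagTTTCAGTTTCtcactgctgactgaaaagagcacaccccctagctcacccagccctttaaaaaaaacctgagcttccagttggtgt
Rsad2 (chr12:26456453-26456602, minus strand): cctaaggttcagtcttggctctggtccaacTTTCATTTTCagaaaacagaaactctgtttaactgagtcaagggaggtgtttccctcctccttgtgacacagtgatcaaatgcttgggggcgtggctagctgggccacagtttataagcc
Tgtp1 (chr11:48992247-48992396, minus strand): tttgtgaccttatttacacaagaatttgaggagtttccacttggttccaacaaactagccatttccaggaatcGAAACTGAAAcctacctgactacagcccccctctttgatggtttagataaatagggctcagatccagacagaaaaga
Isg15 holds 3 overlapping matches, Ifit1 2, and Rsad2 and Tgtp1 1 each. A match describes the letters and is not evidence of binding in these lungs.

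The 4 genes printed above separated the doses completely. Isg15, a ubiquitin-like modifier, stood at 15.7, 5.58 and 22 CPM with IgG and 7.48 and 8.29 CPM with anti-PD-1 at 0 Gy, and at 32.9 to 63.4 CPM with a median of 51.9 at 8 Gy. Ifit1, which binds viral RNA, stood at 8.20, 7.75 and 9.42 CPM and at 5.42 and 7.62 CPM, then at 21.4 to 44.9 CPM with a median of 41.4. The antiviral enzyme gene Rsad2 stood at 7.33, 6.49 and 10.3 CPM and at 2.64 and 5.17 CPM, then at 19.0 to 38.2 CPM with a median of 32.1. Each of these 3 genes rose by about the same amount with both antibodies: 2.13 and 2.30 for Isg15, 2.27 and 2.15 for Ifit1 and 2.09 and 2.52 for Rsad2 on the log2 scale, with IgG and anti-PD-1 in that order. Within 8 Gy, anti-PD-1 replicate 3 was the lowest library for all 3.

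Of the 30 interferon-stimulated genes 25 rose and none fell, with a median log2 fold change of 1.12. The number was 21 to 27 over the fits that left out 1 library, and 27 and 28 under quantile normalization and equal library medians. In 16 of the 30 the doses did not overlap. Examples beside those above were Ifit3, at 1.99 ± 0.22, and Rtp4, a chaperone of surface receptors, at 1.40 ± 0.17.

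Among the sensors and the parts of the signalling chain a smaller number of genes rose. Of 20 nucleic acid sensors and their adaptors 9 rose and 1 fell, with a median of 0.36, and 5 rose without anti-PD-1 0 Gy replicate 1. Zbp1, the sensor of left-handed nucleic acid that triggers necroptosis, stood at 56.2, 23.8 and 93.0 CPM with IgG and 44.3 and 35.9 CPM with anti-PD-1, then at up to 165 CPM with a median of 157, above all 0 Gy libraries (1.69 ± 0.27, adjusted p = 0.00136). The transcription factor Irf7, which amplifies type I interferon, rose by 1.49 ± 0.25 and the regulator of RNA sensing Dhx58 by 1.04 ± 0.20. The DNA-binding proteins Ifi204 and Ifi211 rose by 1.02 ± 0.12 and 1.04 ± 0.10.

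Cgas, which makes the messenger that activates STING when it meets DNA, stood at 8 to 11 CPM at 0 Gy and at 12.4 to 16.1 CPM at 8 Gy. Its log2 fold change was 0.49 ± 0.14 (adjusted p = 0.0239), and the call was lost without IgG 8 Gy replicate 3 (adjusted p = 0.0569), anti-PD-1 0 Gy replicate 1 (0.0625) or 2 (0.079), or anti-PD-1 8 Gy replicate 2 (0.0548). Trex1, the exonuclease that removes cytosolic DNA, rose by 0.91 ± 0.16. The sensor and the enzyme that takes away its substrate were both higher.

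Of 18 interferons, interferon receptors and STAT pathway genes 6 rose and 2 fell, with a median of 0.17, and 3 rose without anti-PD-1 0 Gy replicate 2. Stat2 and Irf9, parts of the complex that type I interferon activates, did not pass the test. The difference was 0.20 ± 0.17 on the log2 scale for Stat2 (adjusted p = 0.441) and 0.27 ± 0.15 for Irf9 (adjusted p = 0.218). Usp18, the protease that removes Isg15 from proteins and damps the receptor, rose by 1.37 ± 0.18.

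The receptor of interferon lambda, Ifnlr1, which is found mainly on epithelium, went against the rest of the pathway. It stood at 16, 16.5 and 14.3 CPM with IgG and 15.8 and 22.9 CPM with anti-PD-1, then at 4.99 to 12.7 CPM with a median of 6.99 (-1.17 ± 0.15, adjusted p = 0.000425), with no overlap between the doses. Ifnb1, which encodes interferon beta, had no reads in any 0 Gy library and 0.0173 to 0.0597 CPM in 4 of the 6 libraries at 8 Gy, which is at most 2 reads. It was too low to be tested.

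The guanylate-binding proteins and the immunity-related GTPases, which attack the vacuoles of intracellular microbes and respond above all to interferon gamma, rose in 13 of 15 cases with none lower. The number was 11 to 13 over the fits without 1 library. Their median was 1.26 over both antibodies, 0.95 with IgG and 1.69 with anti-PD-1. Tgtp1 stood at 101, 63.9 and 103 CPM and at 98.3 and 67.1 CPM at 0 Gy, at 212 to 243 CPM at 8 Gy with IgG and at 294 to 367 CPM at 8 Gy with anti-PD-1. The doses did not overlap, and at 8 Gy neither did the antibodies. Iigp1 showed the same order, from 67.5 to 166 CPM at 0 Gy to 165 to 283 CPM with IgG and 379 to 620 CPM with anti-PD-1, with 1 IgG 8 Gy library inside the 0 Gy range. The interaction had an adjusted p of 0.997 for both, so the difference between antibodies did not pass the test.

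Gbp5, which assists inflammasome assembly, rose by 1.79 ± 0.32, Gbp10 by 2.11 ± 0.42 and the autophagy regulator Irgm1 by 1.11 ± 0.16. By contrast none of 16 genes of MHC class I presentation passed the test in either direction, with a median of 0.21. Of 10 class II genes only Ciita, the master regulator of class II, rose, at 0.85 ± 0.24 (adjusted p = 0.026). That call was lost in 8 of 25 alternatives.

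**Figure D2:**
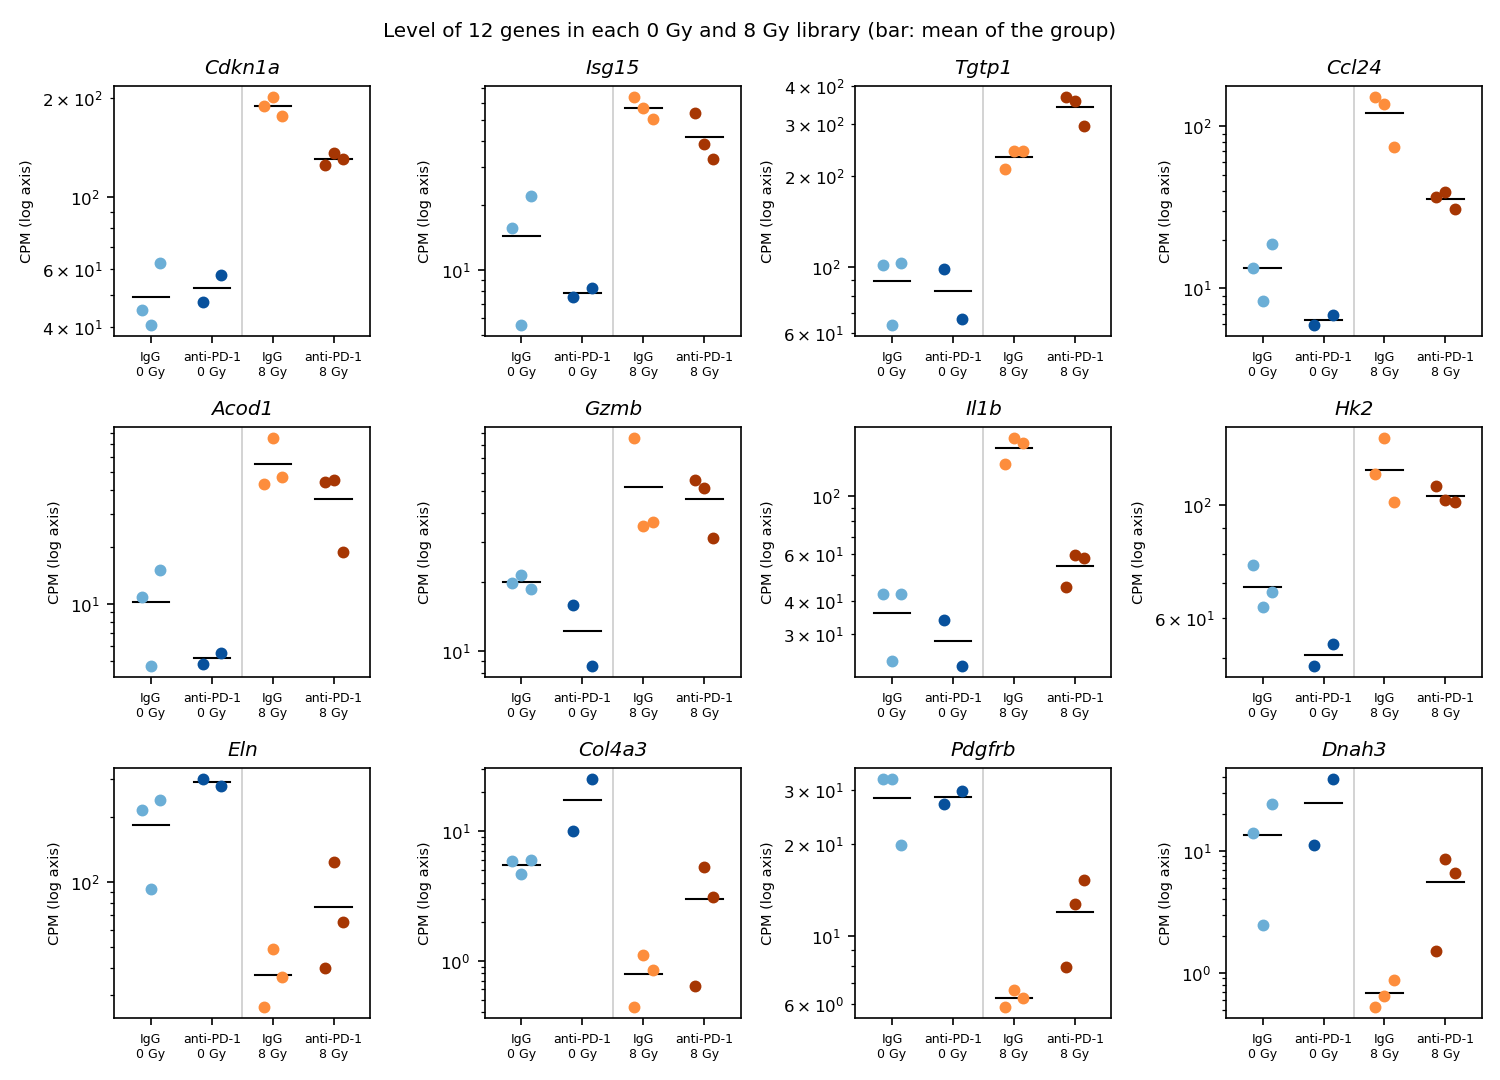
Each panel shows 1 gene, with CPM on a log y axis, the 4 groups on the x axis, 1 point per library and a bar at the group mean. The 8 Gy libraries lie above all 0 Gy libraries for Cdkn1a, Isg15, Tgtp1, Ccl24, Acod1, Gzmb, Il1b and Hk2, below all of them for Pdgfrb, and overlap them for Eln, Col4a3 and Dnah3.

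Chemokines, the attractants of leukocytes, rose in part together with their receptors. Of 15 CC chemokines 7 rose and 1 fell, with a median of 0.60. The number that rose was 3 when anti-PD-1 8 Gy replicate 1 was left out. It was 4 without IgG 0 Gy replicate 1, IgG 8 Gy replicate 1 or 3, anti-PD-1 0 Gy replicate 2 or anti-PD-1 8 Gy replicate 2, and also with a replicate block or with no filter on low values. The largest rise among the genes that met the rule for naming was that of Ccl24, eotaxin-2, which is made by alternatively activated macrophages and attracts eosinophils. Ccl24 (mm10, chromosome 5, 135569937 to 135573049, minus strand) stood at 13.3, 8.34 and 18.7 CPM with IgG and at 5.95 and 6.89 CPM with anti-PD-1 at 0 Gy. At 8 Gy it stood at 151, 137 and 74.1 CPM with IgG and at 36.6, 39.4 and 31.1 CPM with anti-PD-1. The 8 Gy values lay above all 0 Gy values with either antibody, and anti-PD-1 libraries lay below IgG libraries at both doses (3.12 and 2.38 on the log2 scale, interaction adjusted p = 0.997).

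The receptor of Ccl24 is Ccr3, the marker receptor of eosinophils. Ccr3 stood at 1.03, 2.20 and 1.55 CPM with IgG and 0.334 and 0.468 CPM with anti-PD-1 at 0 Gy, and at 8.45, 9.76 and 8.22 CPM with IgG and 2.41, 1.47 and 0.656 CPM with anti-PD-1 at 8 Gy. With IgG the doses were far apart, and over both antibodies they overlapped. Its log2 fold change was 1.63 ± 0.43 (adjusted p = 0.0168), and the call was lost without anti-PD-1 0 Gy replicate 1 (0.0577) or 2 (0.0504). Of 7 tested markers of eosinophils, basophils and mast cells none passed the test in either direction, with a median of -0.26.

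Attractants of monocytes and of activated T cells were also higher. Ccl12, a ligand of Ccr2, stood at 3.17 to 5.64 CPM at 0 Gy and 6.03 to 8.80 CPM at 8 Gy (0.80 ± 0.15, adjusted p = 0.00299). Ccr2, the receptor that brings monocytes out of the bone marrow, stood at 17.2 to 41.6 and 28.6 to 96.6 CPM (1.23 ± 0.36, adjusted p = 0.0261). Its call was lost without any 1 of 6 libraries: IgG 0 Gy replicate 1, IgG 8 Gy replicates 2 and 3, anti-PD-1 0 Gy replicate 1 and anti-PD-1 8 Gy replicates 1 and 2 (adjusted p of 0.052 to 0.116). Ccl3 and Ccl4, attractants of macrophages and T cells, rose by 1.33 ± 0.27 and 1.29 ± 0.35, the latter not without anti-PD-1 0 Gy replicate 2 (adjusted p = 0.112) or anti-PD-1 8 Gy replicate 1 (0.0521), nor in the additive model (0.0647).

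The 3 ligands of the T cell receptor Cxcr3, all induced by interferon gamma, were higher. Cxcl11 stood at 1.16 to 2.79 CPM at 0 Gy and 4.59 to 10.3 CPM at 8 Gy, with no overlap (1.72 ± 0.27, adjusted p = 0.00128). Cxcl9 rose by 1.42 ± 0.35 and Cxcl10 by 1.92 ± 0.47, and without anti-PD-1 0 Gy replicate 2 neither passed (adjusted p = 0.08 and 0.0693). Without that library 1 of the 15 CXC and other chemokines rose, where 4 did in all. In the chemokine receptor list, 3 of 17 rose and none fell. Without anti-PD-1 0 Gy replicate 1 the number was 1.

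The fall among the CC chemokines was in Ccl21a, the chemokine with which lymphatic vessels guide dendritic and T cells. It stood at 14.6, 11.1 and 8.77 CPM with IgG and 12.8 and 13.5 CPM with anti-PD-1, then at 1.51 to 5.00 CPM with a median of 1.66 (-2.19 ± 0.22, adjusted p = 0.000116). The doses did not overlap. Of 7 markers of lymphatic endothelium, of which Ccl21a is 1, 3 fell.

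Macrophage genes rose in several functional groups. Of 27 markers of monocytes and macrophages 11 rose and none fell, with a median of 0.37. The part of these cells in the rises of the chemokines, enzymes and cytokines was not tested. Msr1, a scavenger receptor, stood at 51.8, 62.6 and 53.6 CPM and at 38.7 and 39.0 CPM at 0 Gy, then at 84 to 128 CPM with a median of 113 (1.23 ± 0.17). The receptors of antibody constant regions Fcgr1 and Fcgr4 rose by 1.20 ± 0.15 and 1.03 ± 0.12. All 3 separated the doses. Of 15 markers of alveolar macrophages, the resident cells of the airspace, none rose and 3 fell, with a median of -0.19. That share is near the 16.1% of all tested genes called lower, whose median was -0.09. The 3 alveolar macrophage calls were not kept without anti-PD-1 0 Gy replicate 2.

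Among 20 genes of macrophage metabolism and oxidant production 8 rose and none fell, with a median of 0.47. Acod1, the enzyme that makes itaconate from an intermediate of the citric acid cycle, stood at 10.9, 4.69 and 15 CPM with IgG and 4.78 and 5.49 CPM with anti-PD-1, then at 18.8 to 75.0 CPM with a median of 44.5 (2.53 ± 0.32, adjusted p = 0.000367). Arginase 1 (Arg1), which consumes arginine, stood at 149, 232 and 81.1 CPM and at 128 and 86.1 CPM, then at 275 to 831 CPM with a median of 383. The doses did not overlap in either gene. The enzyme of tryptophan breakdown Ido1 rose by 2.01 ± 0.40.

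Of 17 complement genes 5 rose and none fell, with a median of -0.01. They included the 3 chains of C1q, which macrophages make, with C1qa at 245 to 456 CPM at 0 Gy and 450 to 764 CPM at 8 Gy (0.73 ± 0.17, adjusted p = 0.00912). Without anti-PD-1 0 Gy replicate 2 none of the 5 passed (C1qa, adjusted p = 0.0613). The number was 3 without IgG 0 Gy replicate 1, anti-PD-1 0 Gy replicate 1 or anti-PD-1 8 Gy replicate 1.

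Cytokines of the interleukin-1 family rose together with their antagonist. Il1b stood at 42.2, 23.6 and 42.3 CPM with IgG and 33.7 and 22.6 CPM with anti-PD-1 at 0 Gy. At 8 Gy it stood at 132, 165 and 158 CPM with IgG and at 45.0, 59.7 and 58.0 CPM with anti-PD-1. All 8 Gy libraries lay above all 0 Gy libraries, and the log2 fold change was 2.10 with IgG and 0.95 with anti-PD-1 (interaction adjusted p = 0.983). Il1rn, which blocks the same receptor, stood at 20.7 to 56.5 CPM at 0 Gy, at 121 to 129 CPM with IgG at 8 Gy and at 38.0 to 58.0 CPM with anti-PD-1 at 8 Gy (1.14 ± 0.20). Il33, an alarmin that tissue cells release, rose from 41.5 to 65.7 CPM at 0 Gy to 97.0 to 177 CPM at 8 Gy (1.12 ± 0.13).

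In the whole list of 22 cytokines 9 rose and 2 fell, and 5 rose without anti-PD-1 0 Gy replicate 2 or in the additive model. The growth factors of myeloid cells moved in opposite directions. Csf2, the factor for granulocytes and macrophages, stood at 2.36 to 4.71 CPM at 0 Gy and 5.09 to 8.96 CPM at 8 Gy (1.03 ± 0.19, adjusted p = 0.00276). Csf3, the factor for neutrophils, stood at 1.49, 1.67 and 0.640 CPM with IgG and 6.88 and 3.50 CPM with anti-PD-1, then at 0.380 to 1.28 CPM (-1.36 ± 0.27, adjusted p = 0.00399). Its higher 0 Gy values were those with anti-PD-1, and the log2 fold change was -0.57 with IgG and -2.16 with anti-PD-1.

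Of 22 genes of cell death and the inflammasome 9 rose and 1 fell, with a median of 0.34. Mlkl, the pore protein that carries out necroptosis downstream of Zbp1, stood at 36.3, 36.5 and 40.1 CPM and at 40.0 and 36.2 CPM, then at 55.9 to 70.1 CPM with a median of 59.2 (0.68 ± 0.09, adjusted p = 0.000425). The spread among the 0 Gy libraries was small, and the doses did not overlap. Casp8, the caspase that restrains necroptosis, rose by 0.38 ± 0.08, also without overlap. The inflammasome sensor Nlrp3 and its adaptor Pycard each rose by 0.81, with SE of 0.18 and 0.17. The survival gene Bcl2a1b rose by 1.05 ± 0.15.

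Among lymphocyte genes, effector molecules rose while general T cell markers did not pass the test. Of 19 genes of cytotoxic T cells and NK cells 7 rose and none fell, with a median of 0.69. The number was 3 without anti-PD-1 0 Gy replicate 2 or anti-PD-1 8 Gy replicate 1, 4 without IgG 0 Gy replicate 1, and 12 without IgG 0 Gy replicate 3 or anti-PD-1 8 Gy replicate 3. It was 12 under quantile normalization, 11 under equal library medians and 3 in the additive model. Gzmb, the death protease granzyme B, stood at 19.7, 21.5 and 18.7 CPM and at 15.8 and 8.57 CPM, then at 31.1 to 85.2 CPM with a median of 44.0 (1.57 ± 0.26, adjusted p = 0.00147). Gzmc rose by 1.61 ± 0.24 from below 1 CPM. Of 23 T cell genes none passed the test, and 22 of them had a positive difference, against 40.2% of all genes. Their median was 0.26.

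Both ligands of PD-1 were higher. Pdcd1lg2, which encodes PD-L2, stood at 6.62, 6.54 and 10.7 CPM with IgG and 4.78 and 3.18 CPM with anti-PD-1, then at 10.2 to 26 CPM with a median of 19.0 (1.60 ± 0.20, adjusted p = 0.000367). Only anti-PD-1 8 Gy replicate 3 lay within the 0 Gy range. Cd274, which encodes PD-L1, had a log2 fold change of 0.69 with IgG and 1.64 with anti-PD-1 (interaction adjusted p = 0.86). Cd80, the ligand of CD28 and CTLA-4, stood at 7.47 to 11.6 CPM at 0 Gy, at 19.1, 22.3 and 35.3 CPM with IgG at 8 Gy and at 12, 12.1 and 13 CPM with anti-PD-1 at 8 Gy (1.49 and 0.26 on the log2 scale, interaction adjusted p = 0.997). The costimulatory receptor Tnfrsf9 (4-1BB) rose by 0.90 ± 0.17. In the list of checkpoints and regulatory T cell genes 4 of 18 rose, and 7 without IgG 0 Gy replicate 3 or under either other scaling.

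**Figure D3:**
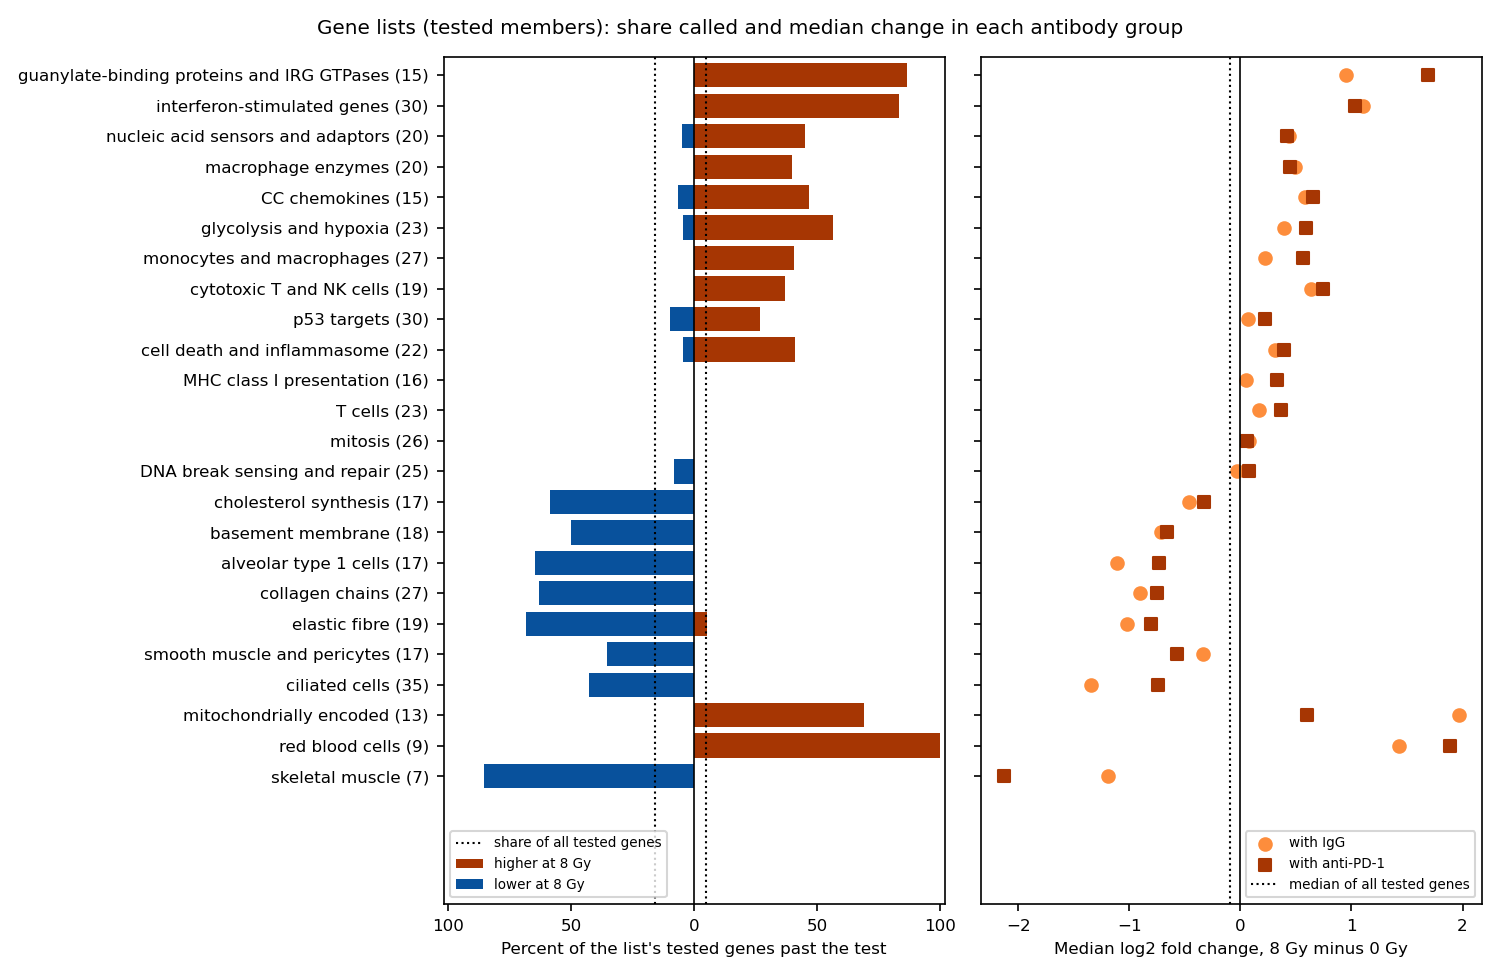
The left panel shows the percent of each list's tested genes (number in brackets) called higher (right) or lower (left) at 8 Gy, with dotted lines at the shares of all tested genes, 4.68 and 16.1%, and the right panel the median log2 fold change of each list with each antibody. Interferon-related lists lie far above the background on the right, as do red blood cell (9 of 9) and mitochondrially encoded genes (9 of 13). Without IgG 0 Gy replicate 1 the number was 2 in each of these last 2 lists. Collagen, elastic fibre, alveolar type 1 and skeletal muscle lists lie far beyond the background on the left.

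Genes of the extracellular matrix fell in several lists. Of 27 collagen chains 17 fell and none rose, and all 27 had a negative difference, with a median of -0.83. The number that fell was 14 to 20 over the fits without 1 library and 17 under both other scalings. The chains of the basement membrane collagen of the alveolus led the list. Col4a3 stood at 5.86, 4.68 and 6.03 CPM with IgG and 9.95 and 25.1 CPM with anti-PD-1 at 0 Gy, and at 0.440, 1.11 and 0.841 CPM with IgG and 0.640, 5.27 and 3.10 CPM with anti-PD-1 at 8 Gy. With each antibody the doses were separate, and over both they overlapped through 1 anti-PD-1 8 Gy library. Its partners in the same trimer, Col4a4 and Col4a5, fell by 2.02 ± 0.39 and 1.11 ± 0.17 on the log2 scale. Col12a1, a chain that decorates collagen fibrils, showed a narrow spread, with 7.62 to 8.58 CPM at 0 Gy and 1.83 to 3.49 CPM at 8 Gy (-1.48 ± 0.19, adjusted p = 0.000344).

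Of 19 genes of the elastic fibre, which gives the lung its recoil, 13 fell and 1 rose, with a median of -0.95. The number that fell was 11 under quantile normalization and 9 under equal library medians. It was also 9 without IgG 0 Gy replicate 1, IgG 8 Gy replicate 3 or anti-PD-1 8 Gy replicate 1. Elastin itself (Eln) stood at 215, 92.7 and 240 CPM with IgG and 298 and 279 CPM with anti-PD-1, then at 26.4 to 123 CPM with a median of 44.6 (-2.14 ± 0.32, adjusted p = 0.000841). The only overlap was between IgG 0 Gy replicate 2 and anti-PD-1 8 Gy replicate 2. Lox, the enzyme that cross-links elastin and collagen, stood at 11.2, 23 and 6.24 CPM and at 30.3 and 31.2 CPM, then at 3.43 to 7 CPM (-1.80 ± 0.30). The microfibril proteins Mfap4 and Mfap5 fell by 1.73 ± 0.36 and 1.51 ± 0.23. Ltbp4, which anchors latent TGF-beta in the fibre, stood at 163 to 276 CPM at 0 Gy and 55.2 to 151 CPM at 8 Gy, with no overlap (-1.38 ± 0.20).

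Among 18 further basement membrane genes 9 fell and none rose, with a median of -0.69. The laminin chains Lama2 and Lama5 fell by 1.42 ± 0.25 and 0.95 ± 0.16, and the linker nidogen 2 (Nid2) by 1.01 ± 0.17, from 12.5 to 19.5 CPM at 0 Gy to 6.42 to 9.50 CPM at 8 Gy. Of 27 matrix proteases and their inhibitors 2 rose and 9 fell. Adamts15, which cleaves proteoglycans, stood at 13.7, 13.4 and 11.5 CPM with IgG and 26.8 and 60.4 CPM with anti-PD-1, then at 4.41 to 9.69 CPM (-1.72 ± 0.24). The collagenase of neutrophils, Mmp8, had a log2 fold change of 0.00 with IgG and -2.58 with anti-PD-1 (interaction adjusted p = 0.417), and its call was lost in the additive model (adjusted p = 0.149). Its 2 anti-PD-1 0 Gy libraries held 21.7 and 66.2 CPM, where all other libraries of the comparison held 3.76 to 8.41 CPM.

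Markers of the cells that make matrix moved with these genes. Of 18 fibroblast markers 8 fell and none rose, with a summed level of 3240 to 4920 CPM at 0 Gy and 2950 to 4380 CPM at 8 Gy. The number that fell was 4 without IgG 0 Gy replicate 1 or either anti-PD-1 0 Gy library, and 5 without IgG 8 Gy replicate 1 or anti-PD-1 8 Gy replicate 1. It was also 4 under equal library medians and 5 in the additive model. Of 17 markers of smooth muscle and pericytes 6 fell and none rose, with sums of 222 to 279 and 129 to 190 CPM, which did not overlap. The part of fibroblasts, smooth muscle and pericytes in the fall of the matrix genes was not tested. Apart from these cell types, 6 of 7 skeletal muscle genes fell, with sums of 15.3 to 52.2 and 7.46 to 13.8 CPM. The highest sums, 46.3 and 52.2 CPM, were those of the 2 anti-PD-1 0 Gy libraries.

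In the list of smooth muscle and pericytes, the cells that wrap capillaries, 3 of the 17 genes separated the doses. Pdgfrb, their growth factor receptor, stood at 32.5, 32.5 and 19.9 CPM with IgG and 27.1 and 29.8 CPM with anti-PD-1, then at 5.86 to 15.2 CPM with a median of 7.29 (-1.66 ± 0.19, adjusted p = 0.000287). The proteoglycan NG2 (Cspg4) fell by 1.85 ± 0.20, from 5.29 to 9.89 CPM at 0 Gy to 1.16 to 2.62 CPM at 8 Gy. Notch3, the Notch receptor of these cells, and its target Heyl fell by 1.22 ± 0.17 and 1.44 ± 0.22. In none of the 4 did the doses overlap. Integrin alpha 7 (Itga7), a laminin receptor of muscle and vessel wall, fell by 1.39 ± 0.14, and the calcium channel gene Cacna1c by 2.03 ± 0.30.

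Signalling genes of the stroma and vessels were called lower in small numbers, to be read against the 16.1% of all tested genes called lower. Of 28 genes of the WNT and hedgehog pathways 6 fell and none rose, and 12 fell without IgG 0 Gy replicate 2. Gli1, the target gene by which hedgehog signalling is read, stood at 5.69, 1.47 and 11.6 CPM with IgG and 3.84 and 8.63 CPM with anti-PD-1, then at 0.896 to 2.54 CPM (-1.72 ± 0.39, adjusted p = 0.00765). The ligands Wnt11 and Wnt5a fell by 1.22 ± 0.29 and 0.95 ± 0.17. Of 27 genes of the TGF-beta and BMP pathways 1 rose and 4 fell, a share below that of all genes. Tgfb3 fell by 0.93 ± 0.19 and its co-receptor Tgfbr3 by 0.83 ± 0.17. The 4 falls became 2 with quantile normalization, with only the groups compared in the fit, and without IgG 0 Gy replicate 1, IgG 8 Gy replicate 2, anti-PD-1 0 Gy replicate 2 or anti-PD-1 8 Gy replicate 1.

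Of 17 genes of the VEGF and angiopoietin pathways none rose and 4 fell. Vegfa, the growth factor of vessels, stood at 260, 162 and 380 CPM with IgG and 215 and 301 CPM with anti-PD-1, then at 86 to 210 CPM, with 4 of 6 libraries below all 0 Gy libraries. Its log2 fold change of -1 ± 0.26 (adjusted p = 0.0157) was not called without anti-PD-1 0 Gy replicate 2 (adjusted p = 0.0783), where 1 of the 17 fell, and 2 fell without the first replicate of any of IgG 0 Gy, anti-PD-1 0 Gy and anti-PD-1 8 Gy, or with quantile normalization. Gpihbp1, which holds lipoprotein lipase on capillaries, fell by 1.67 ± 0.34. Of 27 markers of blood vessel endothelium none rose and 3 fell, also a share below that of all genes. That number was 11 without IgG 0 Gy replicate 2, and 1 without IgG 8 Gy replicate 1 or 3, anti-PD-1 0 Gy replicate 2 or anti-PD-1 8 Gy replicate 1.

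Among epithelial genes, those of the flat cells of the alveolus fell. Of 17 markers of alveolar type 1 cells, which include Col4a3 and Col4a4, 11 fell and none rose. All 17 had a negative difference, with a median of -1.11 with IgG and -0.73 with anti-PD-1. Scnn1g, a subunit of the epithelial sodium channel that clears fluid from the airspace, stood at 8.35, 4.34 and 13 CPM with IgG and 10.7 and 19.1 CPM with anti-PD-1. At 8 Gy it stood at 0.776, 1.81 and 1.98 CPM with IgG and at 3.14, 10 and 7.27 CPM with anti-PD-1 (-1.63 ± 0.31, adjusted p = 0.00341). Spock2 fell by 1.53 ± 0.27. Ager, which encodes the receptor RAGE, fell by 1.19 ± 0.32, a call lost without anti-PD-1 0 Gy replicate 2 (adjusted p = 0.0884). In these 3 genes the IgG 8 Gy libraries were the lowest, and anti-PD-1 8 Gy replicates 2 and 3 reached the 0 Gy range.

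The count of ciliated cell genes that fell depended on single libraries. Of 35 genes 15 fell and none rose, with a median of -1.02. Leaving out IgG 0 Gy replicate 2 raised the number to 30. It was 9 when replicate 1 of IgG 0 Gy was left out, 8 for replicate 1 of anti-PD-1 8 Gy and 2 for replicate 2 of anti-PD-1 0 Gy. Dnah3, a motor of the ciliary axoneme, stood at 13.9, 2.48 and 24.1 CPM with IgG and 11.2 and 38.6 CPM with anti-PD-1 at 0 Gy. At 8 Gy it stood at 0.525, 0.650 and 0.873 CPM with IgG and at 1.52, 8.54 and 6.55 CPM with anti-PD-1 (-2.60 ± 0.55, adjusted p = 0.00535). Hydin, a part of the central pair of the axoneme, fell by 2.12 ± 0.46. As in the alveolar type 1 genes, anti-PD-1 8 Gy replicates 2 and 3 overlapped the 0 Gy libraries and the other 8 Gy libraries did not, in both genes. Of 6 mesothelial markers 2 fell, among them Msln, from 251 to 606 CPM to 125 to 407 CPM (-1.06 ± 0.19).

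**Figure D4:**
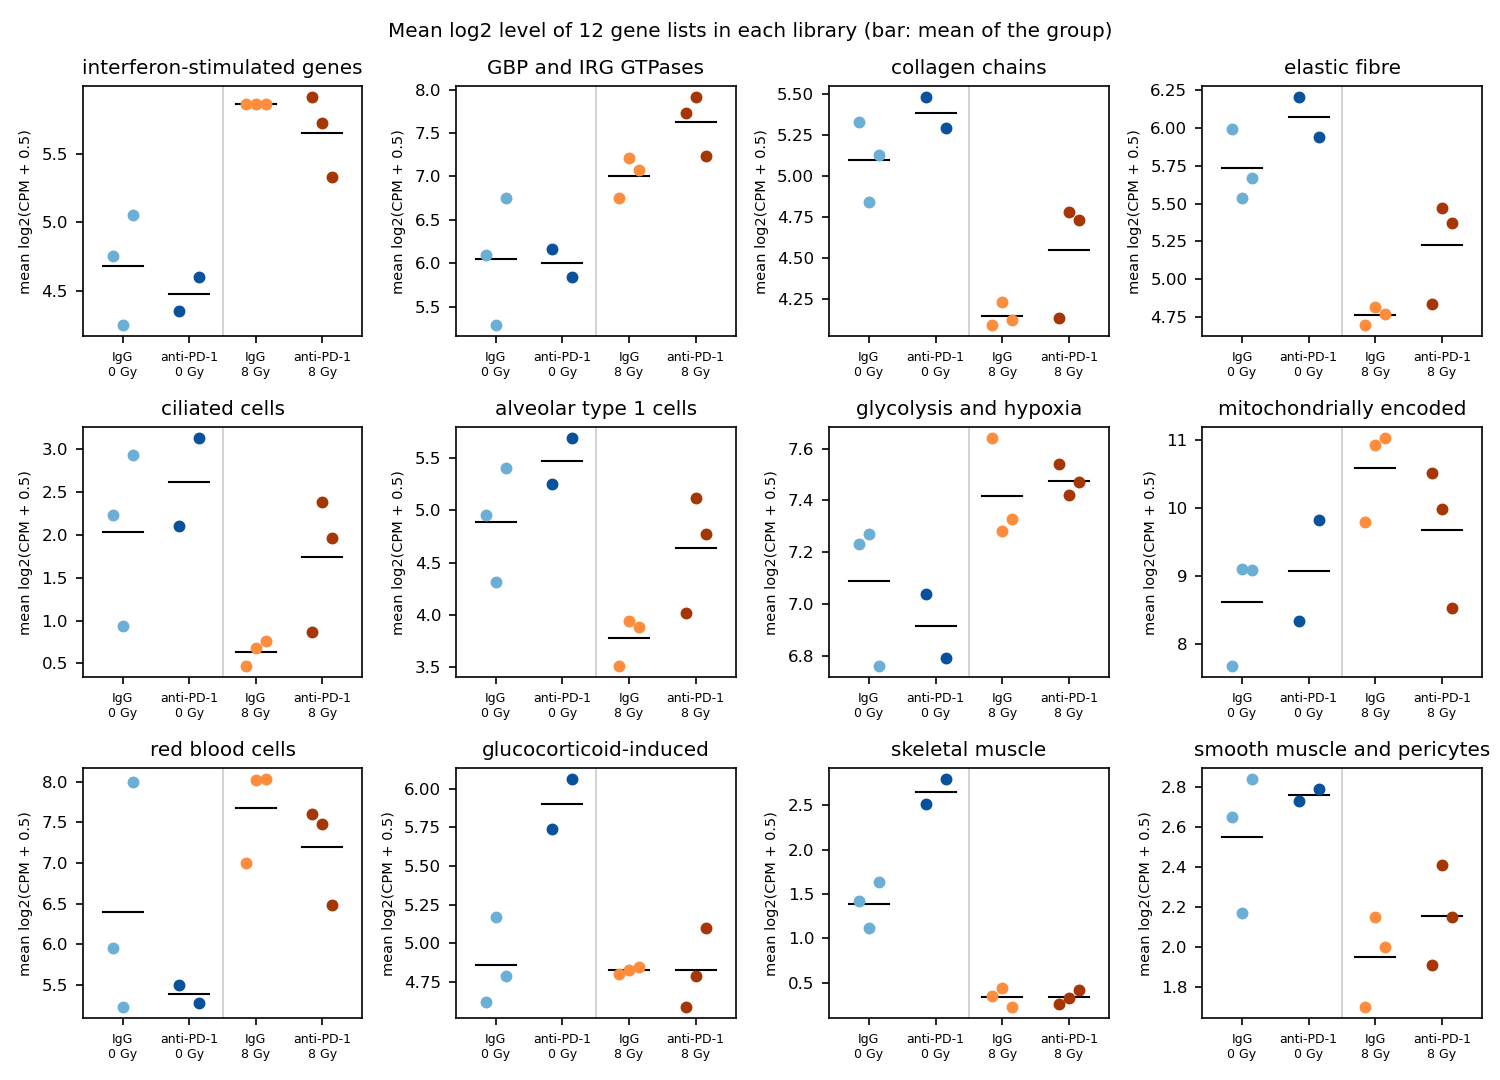
Each panel gives the mean log2(CPM + 0.5) of 1 gene list in each library (points) and the group mean (bar) for the 4 groups on the x axis. The doses are separate for interferon-stimulated genes, collagen chains, elastic fibre and skeletal muscle, while ciliated and alveolar type 1 lists spread widely and the glucocorticoid-induced list is high only in the 2 anti-PD-1 0 Gy libraries.

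Metabolic genes changed in 2 directions. Of 23 genes of glycolysis and the hypoxia response 13 rose and 1 fell, with a median of 0.52, and 6 rose without anti-PD-1 0 Gy replicate 2. Hk2, the hexokinase that starts glycolysis, stood at 76.2, 63 and 67.3 CPM with IgG and 48.2 and 53.3 CPM with anti-PD-1, then at 101 to 135 CPM (0.89 ± 0.09, adjusted p = 0.000149). Ldha, which makes lactate, rose from 550 to 722 CPM to 844 to 1070 CPM (0.56 ± 0.10), and the lactate exporter Slc16a3 by 0.73 ± 0.16. Pgam1, phosphoglycerate mutase, rose by 0.62 ± 0.14. The doses did not overlap for Hk2, Ldha and Pgam1. The gene of the list that fell was Vegfa, which the same hypoxia-inducible factors are known to induce.

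Those factors bind the core ACGTG, and the promoters of 3 genes that rose show its placement, with both strands searched and matches in capitals (CACGT is the same core on the other strand). The core was present in 15 of the 22 listed glycolysis and hypoxia genes with a RefSeq promoter (68.2%), against 27.8% of the 11848 tested genes with a promoter there and 21.8% of all 27025. In the circadian clock list the share was about as high, 10 of 16 (62.5%). It is contained in CACGTG, the E-box of clock factors.
Ldha (chr7:46845654-46845803, plus strand): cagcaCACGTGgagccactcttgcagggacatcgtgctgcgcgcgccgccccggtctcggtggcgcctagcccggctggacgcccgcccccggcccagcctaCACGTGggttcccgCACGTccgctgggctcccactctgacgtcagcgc
Slc16a3 (chr11:120948917-120949066, plus strand): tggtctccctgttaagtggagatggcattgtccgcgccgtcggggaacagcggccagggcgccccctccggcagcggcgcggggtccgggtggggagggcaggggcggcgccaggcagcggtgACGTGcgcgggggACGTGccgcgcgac
Pgam1 (chr19:41911721-41911870, plus strand): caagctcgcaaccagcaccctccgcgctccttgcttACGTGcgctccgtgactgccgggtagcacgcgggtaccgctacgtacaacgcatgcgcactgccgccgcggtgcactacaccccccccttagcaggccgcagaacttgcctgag
In the Ldha window, that of the first of its 2 listed starts, 5 matches were counted over both strands. A CACGTG counts there as 2 matches, 1 per strand. These lie at 145 and 144 and at 48 and 47 bases before the start, and the remaining match at 34. Slc16a3 holds 2 matches and Pgam1 1. The same window before the second Ldha start holds none.

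Cholesterol synthesis moved down. Of 17 genes 10 fell and none rose, with a median of -0.42, and 5 fell without IgG 0 Gy replicate 1 or either of the anti-PD-1 0 Gy libraries and under equal library medians. Lss, which closes the sterol rings, fell by 0.53 ± 0.10, from 35.7 to 48.6 CPM to 26.1 to 30.3 CPM, with no overlap between the doses.

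Of 18 circadian clock genes 2 rose and 5 fell, with a median of -0.43, and both scalings gave the same counts. The 5 that fell included 4 repressors of the clock: Per3 fell by 1.5 ± 0.29, Per2 by 1.01 ± 0.24, Per1 by 0.93 ± 0.21 and Cry2 by 0.84 ± 0.12. Per3 stood at 29.9, 16.3 and 52.2 CPM with IgG and 23.3 and 33.5 CPM with anti-PD-1, then at 6.04 to 19.6 CPM with a median of 9.05. Cry2 separated the doses, with 24.1 to 50.9 and 16 to 21.8 CPM. The other was Tef, an output factor of the clock, which fell by 0.96 ± 0.23, not without anti-PD-1 0 Gy replicate 2 (adjusted p = 0.0616). Bhlhe40, which represses the Per genes, rose by 0.46 ± 0.09. The hour of collection is not given in the labels, and its part in these values was not tested.

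Genes that glucocorticoid hormone induces fell in 6 of 14 cases, with none higher, and here the antibodies differed in the level at 0 Gy. The median log2 fold change was -0.08 with IgG and -1.09 with anti-PD-1. Zbtb16 stood at 1.88, 1.18 and 4.52 CPM with IgG at 0 Gy, at 14.8 and 22.5 CPM with anti-PD-1 at 0 Gy, and at 1.13 to 2.97 CPM over all 8 Gy libraries. The fold change on the log2 scale was -0.01 with IgG and -3.34 with anti-PD-1 (interaction adjusted p = 0.161), and the call over both was lost in the additive model (adjusted p = 0.0513). Fkbp5, a chaperone of the glucocorticoid receptor, stood at 96.5 to 138 CPM with IgG and 215 and 255 CPM with anti-PD-1 at 0 Gy, and at 89.3 to 116 CPM at 8 Gy (interaction adjusted p = 0.417). Pdk4, a switch from glucose to fat oxidation, fell by 1.49 ± 0.28. The same 2 libraries were also highest in skeletal muscle genes: Acta1 stood at 2.25, 1.37 and 2.67 CPM with IgG, 12.8 and 12.7 CPM with anti-PD-1, and 0.124 to 0.422 CPM at 8 Gy (-3.03 ± 0.30), and Ckm fell by 2.25 ± 0.30. For Zbtb16 and Fkbp5 the fall over both antibodies rests mainly on those 2 libraries, while Acta1 lay above all 8 Gy values in the IgG 0 Gy libraries too.

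The remaining genes with the lowest p or the largest falls belong to several tissues. Atp7b, a copper pump, stood at 17.6, 15.7 and 21.8 CPM with IgG and 30.3 and 43.4 CPM with anti-PD-1, then at 5.91 to 11.5 CPM, and had the lowest adjusted p of the genes that fell (-1.56 ± 0.14, adjusted p = 7.84e-05). Ankrd16 fell by 1.28 with either antibody. Adamtsl2, a microfibril protein, fell by 2.45 ± 0.43, the lipid-binding protein gene Sec14l4 by 2.5 ± 0.32 and Gramd2 by 2.36 ± 0.35. The transporter Abca8a fell by 2.18 ± 0.29, the phosphodiesterase Gdpd2 by 2.32 ± 0.33 and the cytochrome P450 gene Cyp2b10 by 2.11 ± 0.36. Rbpjl, a relative of the Notch effector Rbpj, fell by 2.55 ± 0.37. Scgb1a1 had a log2 fold change of -1.21 ± 0.43 and did not pass (adjusted p = 0.0589), although it did without IgG 0 Gy replicate 2 (0.0133) or anti-PD-1 8 Gy replicate 2 (0.024), with a replicate block (0.0394) and with quantile normalization (0.0293).

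The values at 8 Gy were finally set against those at 4 Gy (n = 5, 2 with IgG and 3 with anti-PD-1), with the test of 8 Gy against 4 Gy taken from the same fit. It called 2988 genes higher at 8 Gy (17%) and 3023 lower (17.2%). Anti-PD-1 4 Gy replicates 2 and 3 lay apart from the other libraries, with 6086 and 5315 genes without reads where the 11 libraries compared above had 2522 to 3851. Leaving them out leaves that group with replicate 1 only, so its mean then rests on a single pool. Without them the numbers were 451 and 1749, and results are also given without them. Leaving out IgG 4 Gy replicate 1 gave 3570 calls in all, and leaving out its replicate 2 gave 3692.

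Some genes that rose at 8 Gy were also high at 4 Gy. A test that did not pass does not show that the 2 doses were equal. Cdkn1a had means of 50.7 ± 9.22, 195 ± 61.3 and 160 ± 33.1 CPM (SD) at 0, 4 and 8 Gy, and the log2 difference between 8 and 4 Gy was -0.18 ± 0.13 (SE, adjusted p = 0.262; -0.04 without the 2 libraries). Phlda3 was lower at 8 Gy than at 4 Gy, at 34.8 ± 2.73 against 59.9 ± 21.1 CPM (-0.61 ± 0.12, adjusted p = 0.00273, and 0.0446 without them). Of the 30 interferon-stimulated genes 6 were higher and 1 lower at 8 Gy than at 4 Gy, with a median log2 difference of 0.24. Without the 2 libraries the median was 0.08. Ifit1, which had means of 24.8 ± 12.8 and 37.1 ± 9.37 CPM at 4 and 8 Gy, had a difference of 0.58 ± 0.22 (adjusted p = 0.0534) with them and 0.20 ± 0.20 (adjusted p = 0.54) without. It passed under equal library medians, with a replicate block, and without anti-PD-1 4 Gy replicate 1 or anti-PD-1 8 Gy replicate 3 (adjusted p of 0.00344 to 0.0454).

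Other genes were higher at 8 Gy than at 4 Gy. Arg1 had means of 135 ± 61.3, 115 ± 31 and 446 ± 198 CPM at 0, 4 and 8 Gy, and every 8 Gy library lay above every other library (8 against 4 Gy, 1.90 ± 0.28, adjusted p = 0.000514, and 0.0103 without the 2 libraries). Il1b stood at 32.9 ± 9.59, 40.3 ± 8.45 and 103 ± 54.7 CPM (1.22 ± 0.17, adjusted p = 0.000469, and 0.01 without them). Mlkl at 37.8 ± 2.08, 45.8 ± 4.54 and 61.2 ± 5.41 CPM (0.41 ± 0.09, adjusted p = 0.00773 without them) and Ifi211 at 43.9 ± 3.30, 56.8 ± 11.8 and 91.3 ± 9.48 CPM (0.65 ± 0.10, 0.0117 without them) were also higher at 8 Gy than at 4 Gy, as were Il33 (0.94 ± 0.13, 0.00895 without them) and Hk2 (0.59 ± 0.09, 0.0127 without them). Ccl24 stood between, at 33.3 ± 14 CPM at 4 Gy against 78.1 ± 53.2 CPM at 8 Gy (0.97 ± 0.25, adjusted p = 0.0102), a call kept without the 2 libraries (0.0417) and lost without IgG 4 Gy replicate 1 (0.0698).

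Genes of the matrix and of many lung cell types were lower at 8 Gy in this comparison. Of 27 collagen chains 13 were lower and 1 higher, and 9 and 1 without the 2 libraries. Of 17 alveolar type 1 markers 16 were lower, and 14 without them. The difference from 4 Gy was as wide in other lists. Lower at 8 Gy were 19 of 19 club cell markers (19 without the 2 libraries) and 34 of 35 ciliated (30). So were 18 of 19 alveolar type 2 (15) and 23 of 27 blood vessel endothelial markers (16). Against 0 Gy fewer were called lower: 5 club cell, 15 ciliated, 4 alveolar type 2 and 3 endothelial markers. In the club cell and alveolar type 1 and 2 lists, every 4 Gy library had a higher summed level than every 0 and 8 Gy library. Ccl21a stood at 12.1 ± 2.27 CPM at 0 Gy, 19.8 ± 5.54 CPM at 4 Gy and 2.53 ± 1.52 CPM at 8 Gy, with the highest mean at the middle dose (8 against 4 Gy, -2.89 ± 0.22, adjusted p = 3.31e-05). The same order held for Scnn1g, at 11.1 ± 5.51, 29.6 ± 4.53 and 4.17 ± 3.65 CPM (-3.04 ± 0.31), for Mfap4, at 32.9 ± 15.9, 69.5 ± 17.2 and 10.9 ± 7.60 CPM (-2.83 ± 0.36), and for Notch3, at 8.91 ± 1.30, 14.4 ± 1.47 and 3.6 ± 1.28 CPM (-1.93 ± 0.17). Eln stood at 225 ± 80.8, 186 ± 91.2 and 56.7 ± 35 CPM (-1.68 ± 0.32) and Pdgfrb at 28.3 ± 5.23, 30.4 ± 10 and 9.09 ± 3.88 CPM (-1.78 ± 0.19). All 6 of these genes also passed without the 2 libraries.

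**Figure D5:**
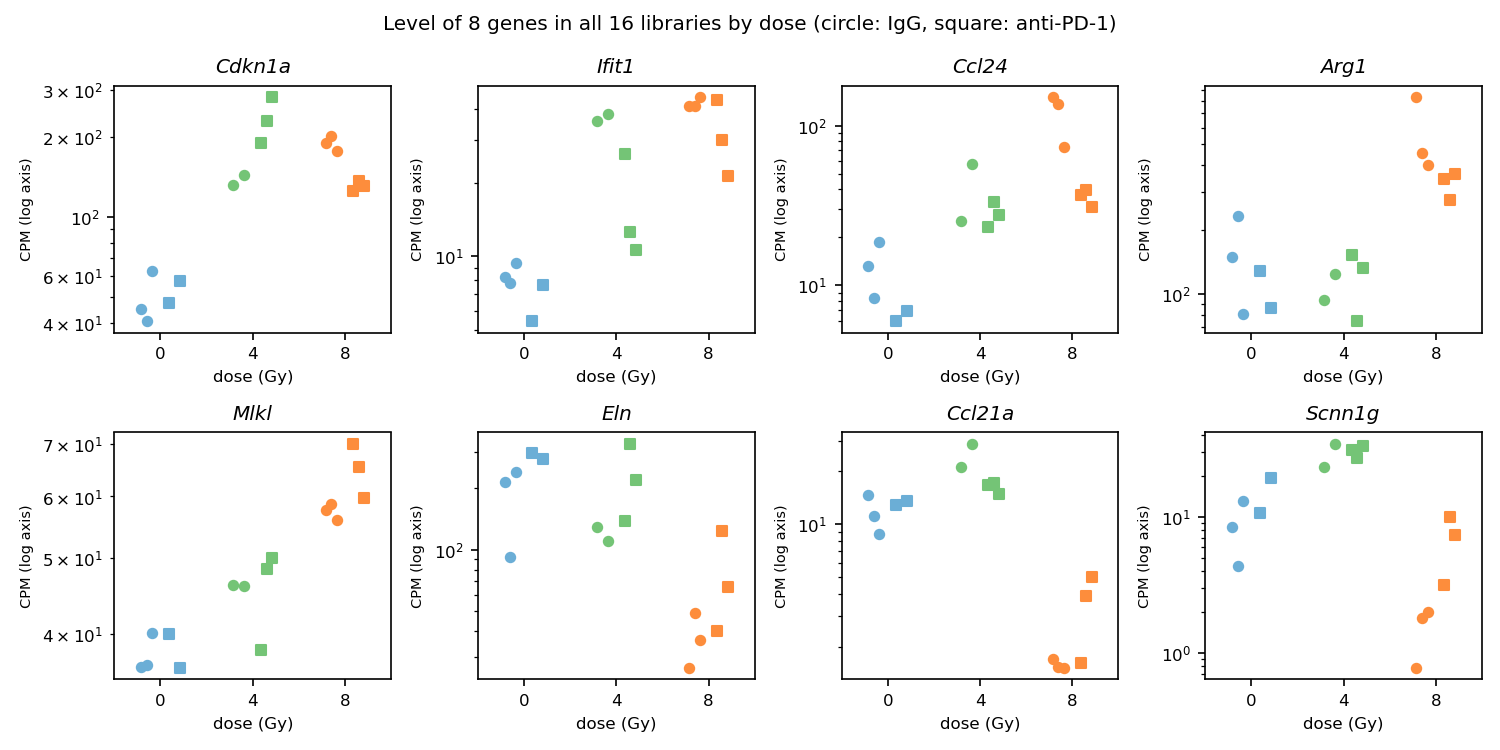
Each panel shows 1 gene in all 16 libraries, with dose on the x axis and CPM on a log y axis, circles for IgG and squares for anti-PD-1. Cdkn1a is high at both doses, Arg1 is high at 8 Gy only, and Ccl21a and Scnn1g are lowest at 8 Gy and highest at 4 Gy.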

How the data were processed

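RNA was extracted with a column kit from ground lungs and made into libraries with the TruSeq RNA kit from 1 µg of total RNA, per the labels' protocols. STAR and Partek were used with mm10, per the submitters' processing notes. Which versions, annotation and strand setting were used is not given in the sources used here. The deposited values are CPM for 30095 genes, to which the authors had added 1e-04 in every cell. Whole reads could not be recovered (57.7 to 63.7% of low values were whole within 0.02), so counts were not modelled. The floor of 3 reads was worth 0.0518 to 0.1 CPM in the 11 libraries and covers counting error only.

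Values were tested as log2(CPM + 0.5), a scale that understates changes of low genes, with the trend and robust options of limma 3.58.1 (R 4.3.3). Genes under 1 CPM in all libraries or all but 1 were left out, which kept 17546. A single fit of 6 group means used all 16 libraries, and Benjamini-Hochberg adjustment ran over all genes tested. Fold changes are ± SE and levels ± SD. Figures were drawn with Python 3 and matplotlib.

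Symbols and positions were matched to GENCODE M21. Of the genes named, 47 overlap an annotated gene on the opposite strand, and without strand the 2 cannot be told apart. The partner is protein-coding for Ddb2, Irf7, Rtp4, Tgtp1, Ciita, Cxcl10, Cxcl11, Tnfrsf9, Mfap4, Nid2, Gli1, Tgfb3, Dnah3, Itga7, Cacna1c and Rbpjl. Near-identical copies may share reads, among them Ifit3, Tgtp1, Gbp10, Ifi204, Ifi211, Bcl2a1b, Ccl21a and Gzmc.

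The 64 gene lists (1184 symbols, 1179 present) and the genes shown were chosen with earlier results of these data known. Lists are described by counts and medians and were given no test. The naming rule takes called genes whose log2 values average 1 or more, whose sign is shared by both antibodies and whose symbol is informative: the 15 largest rises and falls and, for each sign, the 5 lowest p. From every list up to 6 tested members of lowest p, called or not, and a short fixed list are added. Not all genes that met the rule are described, and some are not reported here. Before use, the fit was checked on simulated data. Alternatives were quantile normalization, equal library medians, no filter, pseudocounts of 0.1 and 1, a replicate block, only the groups compared, an additive model, leaving out anti-PD-1 4 Gy replicates 2 and 3 together, and leaving out each library.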

Additional observations from a re-analysis of the deposited data

Results flagged for a closer look

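In 5 of the genes named, 1 library lay far from the other libraries of its dose by Dixon's criterion. Chance alone meets it in about 1 of 20 sets. With 246 sets tested, 5 flags are fewer than chance would give. Ccr2 was low in anti-PD-1 8 Gy replicate 3, at 28.6 CPM against 65.9 to 96.6 CPM in the other 8 Gy libraries. Il33 was low in IgG 0 Gy replicate 3, at 41.5 CPM against 60.7 to 65.7 CPM. Eln was low in IgG 0 Gy replicate 2, at 92.7 CPM against 215 to 298 CPM. Slc16a3 was high in IgG 8 Gy replicate 1, at 124 CPM against 72.0 to 87.7 CPM. Pdk4 was high in anti-PD-1 8 Gy replicate 3, at 2.35 CPM against 0.690 to 1.14 CPM.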

How the results depend on the processing

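The number of genes called at 8 Gy against 0 Gy (3640) was 2863 to 3719 under the alternatives other than leaving out 1 library, and 2011 to 4413 over the fits that left out 1 library. The interaction with antibody had 0 calls except without the filter on low values (6), with a replicate block (1) and in the fits that left out 1 library, which gave 0 to 2 (IgG 0 Gy replicate 3 left out, 2, and anti-PD-1 0 Gy replicate 1 left out, 1). It has no value in the additive model. For 8 Gy against 4 Gy, 2200 genes were called once anti-PD-1 4 Gy replicates 2 and 3 were left out together. The number was 3570 to 7431 over the fits that left out 1 library, against 6011 in all. Of the 123 genes named, 107 kept their call at 8 Gy against 0 Gy under each of the 25 alternatives, and none changed direction. The replicate numbers do not pair the libraries: deviations of same-numbered libraries correlated at -0.546 to 0.442, over 0.1 in 11 of 36 pairs, and 5 of 16 libraries correlated best with one of their own number. With the replicate block 3035 genes were called at 8 Gy against 0 Gy (644 higher, 2391 lower). The 2 anti-PD-1 0 Gy libraries limit what can be said of that antibody alone, and low genes rest on few reads.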

Other observations

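The table also holds rows for sequences that are not mouse genes. RFP stood at 8.98 to 23.1 CPM at 0 Gy and 8.36 to 20.9 CPM at 8 Gy, and CREERT2 at 11.6 to 27.7 and 24.5 to 34.7 CPM, with every library holding reads of both. GFP did not exceed 0.151 CPM in any of the 11 libraries.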
